A study of Mus musculus with 180 samples.

Results

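The genes described here are 8 neuropeptide precursors of hippocampal interneurons: Sst, Npy, Cort, Vip, Crh, Tac1, Cck and Penk. They were taken by name from a table of 54429 genes, as a fixed list of peptide genes. The rule uses names only, but the list was chosen with earlier results of these data known. Hippocampal RNA was sequenced from 30 male mice, and each mouse gave 6 libraries. The mice carried a Camk2a-cre transgene, line T29-1, together with a conditional HA tag on the ribosomal protein Rpl22, so Cre activity from the Camk2a promoter placed the tag on ribosomes of excitatory forebrain neurons. All groups shared both alleles. The Cre line is T29-1Stl/J on a B6 background, and the tag line is B6N.129-Rpl22tm1.1Psam/J. Ages and the length of sleep deprivation are not given in the sources used here. The tissue of each mouse was split into a membrane-bound fraction and a cytosolic fraction, and each was divided into a pS6 capture, a Camk2a capture and an uncaptured Input. The pS6 capture pulls down ribosomes whose protein S6 is phosphorylated, a mark of recently active neurons of any type. The Camk2a capture pulls down the HA-tagged ribosomes. Mice underwent contextual fear conditioning (CFC) or did not (NoCFC), and were then sleep deprived (SD) or left to sleep (Sleep). The 4 groups were CFC SD with 7 mice, CFC Sleep with 8, NoCFC SD with 7 and NoCFC Sleep with 8.

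Neuropeptides are cut from precursor proteins that enter the endoplasmic reticulum as they are made, so their mRNAs are translated on membrane-bound ribosomes, and the mature peptides are packed into dense-core vesicles. In the hippocampus they mark classes of GABAergic interneuron. Sst, somatostatin, marks dendrite-targeting cells, and Cort, cortistatin, is a close relative of somatostatin that binds the same receptors and was named for its cortical expression and effects on slow-wave sleep. Npy, neuropeptide Y, is made in neurogliaform, ivy and many Sst cells. Vip, vasoactive intestinal peptide, marks cells that chiefly inhibit other interneurons. Crh, corticotropin-releasing hormone, is a stress peptide that in hippocampus is made in scattered interneurons. Tac1 encodes the precursor of substance P and neurokinin A, and Penk the precursor of the enkephalins, opioid peptides. Cck, cholecystokinin, marks a class of basket cell, but its mRNA and that of Penk also occur in excitatory cells.

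The genes lie on 6 mouse chromosomes of build GRCm38, by the GENCODE vM21 annotation. Sst is at chr16:23889573-23890958, Npy at chr6:49822710-49829507, Cort at chr4:149125034-149126763, Vip at chr10:5639218-5647617, Crh at chr3:19693401-19695396, Tac1 at chr6:7554879-7565834, Cck at chr9:121489824-121495694 and Penk at chr4:4133531-4138819. All 8 are protein coding, and the counts cover their exons. The 5′ end of Penk overlaps the opposite-strand gene A830012C17Rik over 233 exon bases. The SMART-seq v4 libraries do not mark strand, so reads there cannot be assigned by strand, and Penk counts are uncertain to that extent. Promoters were read from a RefSeq table on GRCm38.p6, which held 6 of the 8 genes; Crh and Penk were not in it. The promoters are shown as a description, and the cAMP response element (CRE) of the Sst promoter is a textbook site of the activity-regulated factor CREB. Each line gives the 100 bases before the RefSeq start, 5′ to 3′ on the gene's strand. Capitals mark the full CRE, TGACGTCA, the short CRE of its first 5 letters on either strand, and the TATAAA box. The windows on the minus strand are Sst at chr16:23890845-23890944, Cort at chr4:149126764-149126863 and Cck at chr9:121495695-121495794, and those on the plus strand are Tac1 at chr6:7554961-7555060, Vip at chr10:5639118-5639217 and Npy at chr6:49822610-49822709.
Sst: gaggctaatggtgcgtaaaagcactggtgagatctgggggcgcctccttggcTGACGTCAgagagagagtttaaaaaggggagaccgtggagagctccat
Cort: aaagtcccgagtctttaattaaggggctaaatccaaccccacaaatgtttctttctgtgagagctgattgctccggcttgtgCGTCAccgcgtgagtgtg
Tac1: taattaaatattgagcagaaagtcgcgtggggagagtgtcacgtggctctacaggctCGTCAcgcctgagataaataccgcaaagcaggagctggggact
Vip: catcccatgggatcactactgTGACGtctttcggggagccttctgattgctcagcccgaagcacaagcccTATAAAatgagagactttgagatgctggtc
Cck: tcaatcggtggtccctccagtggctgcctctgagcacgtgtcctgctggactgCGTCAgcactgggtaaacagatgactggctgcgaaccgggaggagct
Npy: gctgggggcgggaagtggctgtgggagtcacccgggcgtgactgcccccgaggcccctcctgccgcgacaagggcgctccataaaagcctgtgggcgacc

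The 250 bases before the start were searched on both strands for 4 motifs. These were the full CRE, the short CRE (the letters TGACG), the AP-1 site (the letters TGANTCA) and the TATAAA box. Sst held the full CRE, at positions -48 to -41. That palindrome also contains a short CRE on each strand. Cort held a short CRE at -18 to -14, Cck at -47 to -43 and Vip at -79 to -75. Tac1 held 2 short CREs, at -197 to -193 and -43 to -39. Vip also held 3 TATAAA matches, and Npy held none of the 4 motifs. Over the same 250 bases of all 32851 promoters of the table, 1.55% held the full CRE, 17.8% the short CRE, 6.75% the AP-1 letters and 12.4% TATAAA. The GENCODE start lies 114 bases upstream of the RefSeq start for Sst and 182 bases upstream for Tac1, and coincides with it for the other 4. A match is a description of letters only. In the results that follow, Sst, Cort, Tac1, Vip and Npy were called higher with SD in the pS6 captures and Cck was not. Among these genes Sst, Cort, Tac1, Vip and Cck held a short CRE and Npy did not. Crh was also called higher with SD, but its promoter was not available to search. A link between the motifs and the SD change was not tested.

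Library totals ran from 11980405 to 26953695 counts (mean 18838648 ± 3034739, SD, n = 180). Camk2a itself, the gene whose promoter drove the tag, averaged 3716 CPM (counts-per-million, a gene's count scaled to the total of its library) in membrane and 2832 CPM in cytosolic Camk2a libraries, against 2385 and 1850 CPM in membrane and cytosolic Input. Summed over 28 GABAergic interneuron genes, levels ran from 469 to 682 CPM in cytosolic Camk2a libraries, against 1414 to 1668 CPM in cytosolic Input. In every library type reads of all 9 astrocyte markers were present. A marker counted as present if any library of a group held reads of it, and the source of these reads was not tested. Of the 180 libraries, 8 lay far from the rest of their type: their deviation from the type's median profile was over 1.5 times the median such deviation. They were cytosolic pS6 of mice 19 and 22, membrane pS6 of mouse 19, membrane Camk2a of mouse 22, membrane Input of mice 16, 22 and 30, and cytosolic Input of mouse 6. Mice 19, 22 and 30 are CFC SD mice, mouse 16 is a CFC Sleep mouse and mouse 6 a NoCFC Sleep mouse, so most far libraries are from CFC SD mice. The mouse numbers follow training: numbers 1 to 11 belong to NoCFC mice alone and 12 to 22 to CFC mice alone. Each of the 4 groups has 2 mice among numbers 23 to 30. The labels do not call these runs batches, and values are given by run where they bear on a result. In bulk RNA, fewer cells of a type and less peptide mRNA per cell cannot be told apart.

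Per kilobase of exon, so that genes can be compared, Cck had the highest mean level in 5 of the 6 library types, at 1321 ± 149.8 CPM per kb in membrane pS6, 1353 ± 221.5 in membrane Camk2a and 295 ± 42.1 in cytosolic Input (SD, n = 30 each). Sst was highest in membrane Input, at 905 ± 86.0 CPM per kb against 668 ± 71.3 for Cck. In membrane pS6 and cytosolic Input the gap between Cck and Sst was smaller than the larger SD of the pair. Penk was next after Cck in cytosolic Camk2a, at 35.7 ± 7.07 CPM per kb, and next after Cck and Sst in membrane Camk2a, at 123 ± 15.3. In the other 4 types Npy held that place, at 224 ± 22.3 CPM per kb in membrane Input. The 4 scarcest genes were Vip, Cort, Tac1 and Crh in every type, with Crh last in both Inputs and both Camk2a captures, at 4.0 ± 0.928 CPM per kb in membrane Input. Vip was last in both pS6 captures, at 8.63 ± 1.81 CPM per kb in membrane pS6. Neighbours among these 4 often differed by less than their SD. The order depended on the gene length used: per kilobase of the principal transcript, Cck also came first in membrane Input, at 1113 CPM per kb, and Vip in membrane pS6, at 19.2 CPM per kb, stood above Cort at 18.7 and Crh at 9.96.

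**Figure D1:**
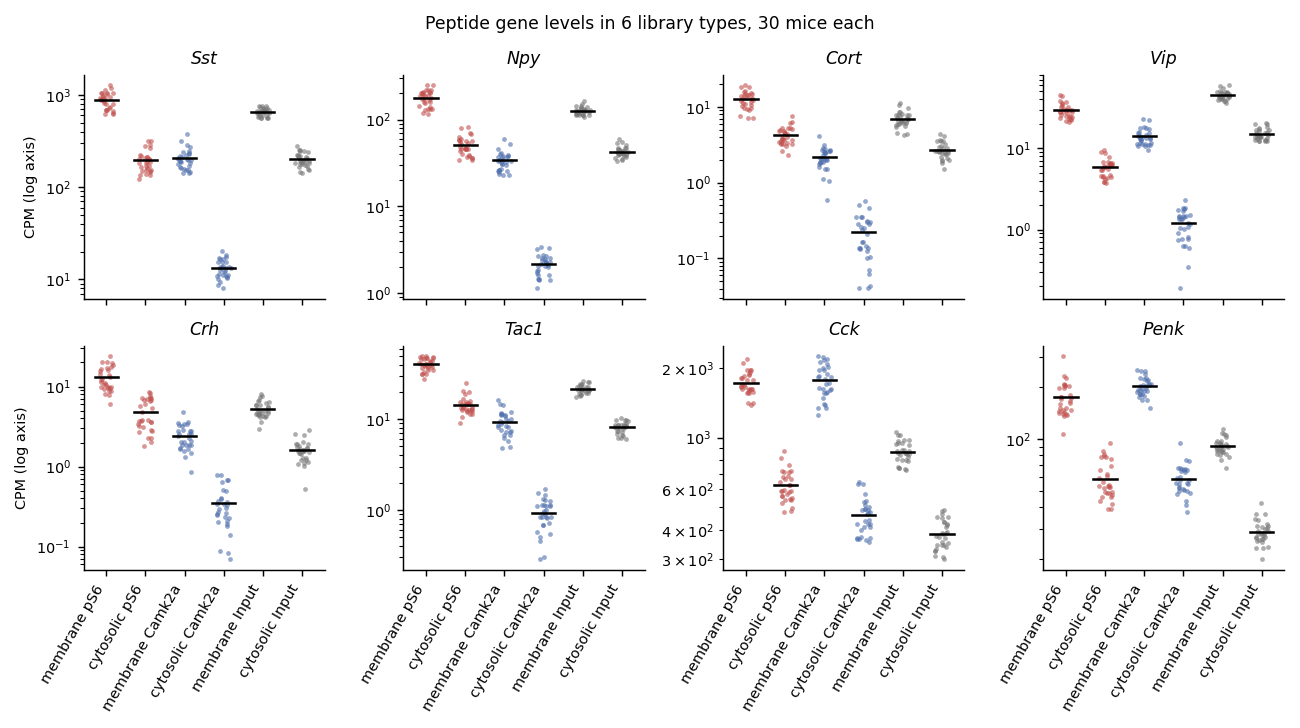
Level of each peptide gene in CPM (log axis) in the 6 library types, 1 point a mouse (n = 30 a type), with the mean as a black bar. Sst, Npy, Cort, Vip, Crh and Tac1 are lower in cytosolic Camk2a than in cytosolic Input libraries, with Sst at a mean of 13.3 CPM in cytosolic Camk2a. Cck and Penk are not lower than in cytosolic Input.

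The first comparison asks which cells each capture drew on. In the cytosolic fraction 6 of the 8 peptide genes were lower in the Camk2a capture than in Input, where 16.5% of 16421 genes were called lower, and Penk was higher, where 0.371% were. A call here needs an edgeR quasi-likelihood adjusted p under 0.05 over all genes and a fold of 2. Sst averaged 13.3 ± 3.02 CPM in cytosolic Camk2a libraries and 199.9 ± 34.6 CPM in cytosolic Input (SD, n = 30 each), a log2 fold change of -3.78 ± 0.08 (SE). The Sst libraries ran from 8.01 CPM over a median of 13.2 to 20.4 CPM in the capture, against 143.7, 192.1 and 278.7 CPM in Input, so the groups did not overlap. Npy was the most depleted, with a log2 fold change of -4.17 ± 0.07. Its libraries ran through 1.14, 2.15 and 3.42 CPM (lowest, median and highest) in the capture, against 33.7, 41.6 and 59.5 CPM in Input, again with no overlap. Vip, at -3.51 ± 0.10, Cort, at -3.46 ± 0.14, Tac1, at -3.00 ± 0.09, and Crh, at -2.07 ± 0.15, were also lower, each in 30 of 30 mice. The counts behind the scarce genes were small: a cytosolic Camk2a library held 1 to 12 reads of Cort and 1 to 20 of Crh.

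Cck and Penk went the other way. Penk ran through 37.8, 56.5 and 94.4 CPM in cytosolic Camk2a, against 19.9, 28.2 and 42.2 CPM in cytosolic Input, so the highest Input libraries reached the lowest captures. Penk, the enkephalin precursor, averaged 58.4 ± 11.6 CPM in cytosolic Camk2a and 28.9 ± 4.64 CPM in cytosolic Input, a log2 fold change of 1.15 ± 0.07 and higher in 30 of 30 mice. Cck averaged 462 ± 83.0 CPM in the capture and 385 ± 54.9 CPM in Input, a log2 fold change of 0.40 ± 0.06 that passed the p threshold (adjusted p = 5.1e-08, edgeR) but not the fold of 2, with 29 of 30 mice higher.

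In the membrane fraction the same 6 genes were lower in the Camk2a capture (16.8% of 16128 genes were called lower), and both Cck and Penk were higher (1.9% were). Sst averaged 205.6 ± 53.0 CPM in membrane Camk2a and 653 ± 62.0 CPM in membrane Input, a log2 fold change of -1.56 ± 0.06. The other 5 fell between -1.80 ± 0.07 for Npy and -1.002 ± 0.10 for Crh, and the Crh call rests at the fold threshold: it moved to -0.99 with no filter on low counts. Cck averaged 1765 ± 289.1 CPM against 871 ± 93.1 CPM in Input, at 1.13 ± 0.06, and Penk 201.7 ± 25.0 against 90.5 ± 10.3 CPM, at 1.27 ± 0.04. Cck ran through 1251, 1750 and 2254 CPM in the capture, against 722, 858 and 1058 CPM in Input, and Penk through 151, 199.7 and 252 CPM, against 67.8, 89.8 and 115 CPM. Neither gene's groups overlapped.

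The pS6 capture did not lose the interneuron peptides, apart from Vip. In the cytosolic fraction Crh and Penk were called higher than in Input (11.4% of 17112 genes were) and Vip lower (8.84% were). Crh averaged 4.82 ± 2.09 CPM in cytosolic pS6 and 1.596 ± 0.474 CPM in cytosolic Input, a log2 fold change of 1.61 ± 0.11, with 29 of 30 mice higher. Vip averaged 5.85 ± 1.495 CPM in the capture and 14.99 ± 2.45 CPM in Input, at -1.27 ± 0.07, lower in 30 of 30 mice, with ranges of 3.70 to 9.45 CPM and 12.1 to 20.6 CPM that did not overlap. Penk was at 1.10 ± 0.07. Tac1, at 0.91 ± 0.06, Cck, at 0.76 ± 0.06, Cort, at 0.73 ± 0.09, and Npy, at 0.33 ± 0.06, passed the p threshold below the fold of 2. For Sst the difference of 0.04 ± 0.07 did not pass (adjusted p = 0.59, edgeR), with means of 194.5 ± 53.4 CPM in cytosolic pS6 and 199.9 ± 34.6 CPM in cytosolic Input, and it was -0.04 when library totals replaced the scaling factors.

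In membrane pS6 against membrane Input, Crh alone passed both thresholds among the 8, where 7.23% of 17101 genes were called higher, at 13.2 ± 4.59 CPM against 5.28 ± 1.23 CPM (log2 fold change 1.27 ± 0.07, higher in 30 of 30 mice). The Crh libraries ran through 5.97, 11.9 and 24.3 CPM in the capture, against 2.94, 4.90 and 8.18 CPM in Input, and the groups overlapped. Cck, at 0.97 ± 0.05, Penk, at 0.92 ± 0.05, Tac1, at 0.90 ± 0.04, Cort, at 0.84 ± 0.08, Npy, at 0.48 ± 0.04, and Sst, at 0.42 ± 0.04, were higher by less than 2-fold, and Vip, at -0.66 ± 0.04, was lower by less than 2-fold in 30 of 30 mice. With size factors of the DESeq2 type Cck crossed the fold threshold, at 1.01.

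Set directly against each other in the cytosolic fraction, the pS6 capture held more than the Camk2a capture of the 6 genes that the Camk2a capture lacked (22.3% of 16730 genes were called higher). Npy had the largest difference of the 8, 4.39 ± 0.08 on the log2 scale, with 50.9 ± 12.9 CPM in pS6 and 2.17 ± 0.576 CPM in Camk2a libraries, and Vip the smallest of the 6, 2.13 ± 0.12. Cck at 0.26 ± 0.06 and Penk at -0.16 ± 0.08 stayed under the fold of 2, and Penk came to 0.01 with library totals. In the membrane fraction 5 genes were called higher in pS6 (16.5% of 16982 genes were), from 1.97 ± 0.06 for Sst to 2.40 ± 0.10 for Cort. Vip, at 0.93 ± 0.05, fell short of the fold of 2 and reached 1.07 with library totals. Cck, at -0.18 ± 0.06, and Penk, at -0.36 ± 0.06, were below 0 there and under the fold of 2.

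**Figure D2:**
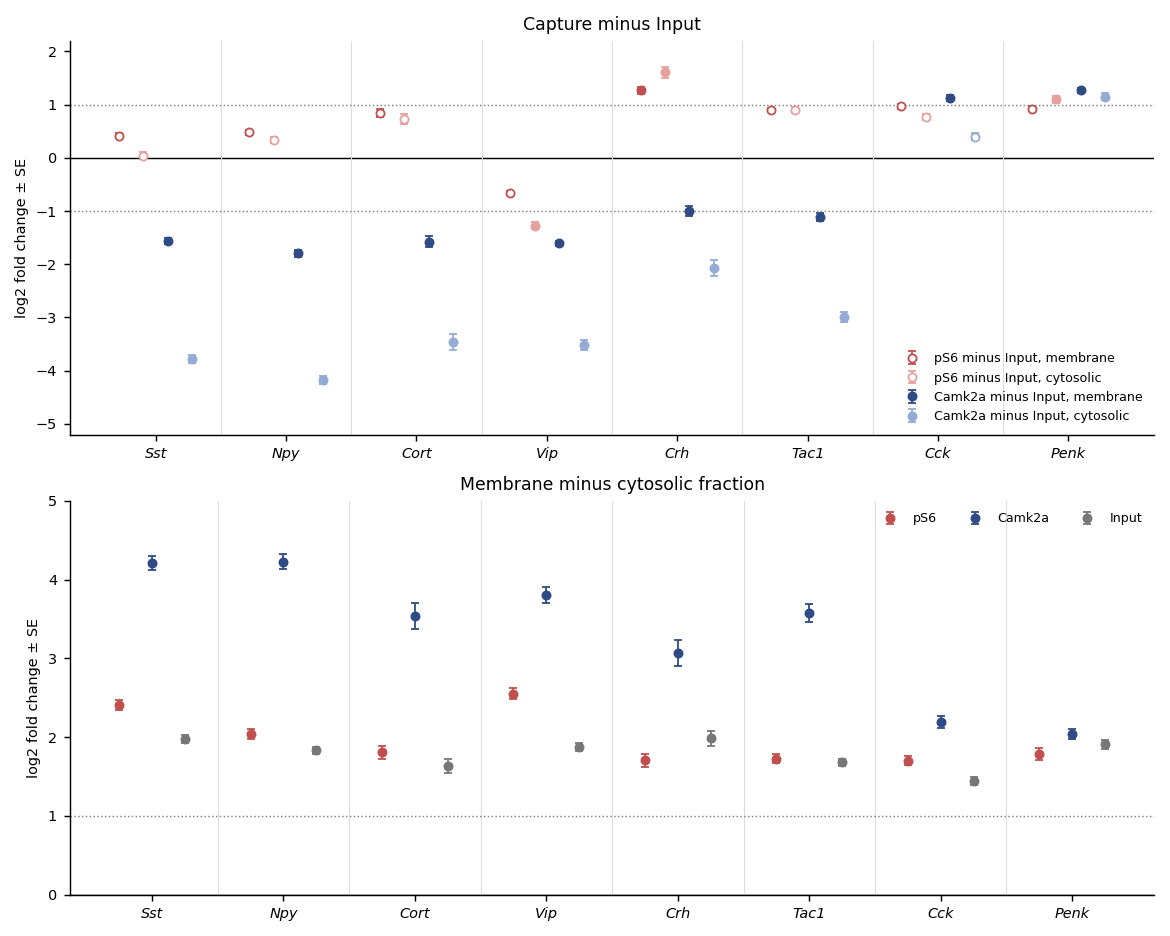
Log2 fold change ± SE of each gene between captures and Input (upper panel) and between fractions (lower panel), from 30 mice a library type, with filled points for calls at adjusted p under 0.05 and a fold of 2 and dotted lines at that fold. Cytosolic Camk2a values fall to -4.17 for Npy, while Vip is the only gene below 0 in the pS6 captures.

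All 8 peptide genes were higher in membrane libraries than in cytosolic ones, in pS6, Camk2a and Input alike, each in 30 of 30 mice. The shares of all genes called higher were 25.3% of 17855 in pS6, 27.9% of 15779 in Camk2a and 22% of 16529 in Input. In Input the log2 differences were close together, from 1.44 ± 0.05 for Cck to 1.98 ± 0.09 for Crh, and in pS6 they ran from 1.70 ± 0.06 for Cck to 2.55 ± 0.07 for Vip. In Camk2a they spread from 2.04 ± 0.07 for Penk and 2.19 ± 0.07 for Cck to 4.21 ± 0.09 for Sst and 4.23 ± 0.09 for Npy. Sst averaged 205.6 ± 53.0 CPM in membrane Camk2a and 13.3 ± 3.02 CPM in cytosolic Camk2a libraries. Scaling by library totals shifted the median of all genes by -0.23 to -0.26 on the log2 scale in these comparisons, by -0.14 and -0.11 in Camk2a against Input, and by 0.17 and 0.14 in pS6 against Camk2a, and by 0.14 in the comparison of fraction differences that follows; the calls on these 8 genes kept their direction except where stated.

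The difference between fractions was itself larger in Camk2a than in Input libraries for 5 genes, in one fit of 120 libraries (7.56% of 17054 genes were called higher). These were Npy at 2.26 ± 0.10, Sst at 2.10 ± 0.10, Vip at 1.80 ± 0.11, Cort at 1.77 ± 0.19 and Tac1 at 1.77 ± 0.12 on the log2 scale. Crh, at 0.96 ± 0.18, and Cck, at 0.62 ± 0.09, passed the p threshold but not the fold of 2, and Penk was at 0.00 ± 0.09 (adjusted p = 0.97, edgeR). DESeq2 also called Crh. All 9 astrocyte markers, of cells that lack the tag, were also higher in membrane than in cytosolic Camk2a libraries. Their median log2 difference was 3.64, against 2.91 for the same comparison in Input. Their part in the result was not tested. For pS6 against Input, 0 of the 8 differences reached a fold of 2 with edgeR or DESeq2 (3.51% of 18174 genes were called higher), 5 of them at an unadjusted p under 0.05, and Vip had the largest at 0.67 ± 0.08.

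Sleep deprivation raised 6 of the 8 peptide genes in both pS6 captures. In cytosolic pS6 Sst, Npy, Cort, Vip, Crh and Tac1 were higher in SD than in Sleep mice, where 4.6% of 16485 genes were called higher, and in membrane pS6 the same 6 were, where 1.11% of 16637 genes were called higher. A call needs an edgeR adjusted p under 0.05, and the contrast averages both training arms. The median of the 8 genes was 0.40 in cytosolic and 0.41 in membrane pS6 on the log2 scale, against a median of 0.00 over all genes in each. Cck and Penk were not called in either.

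Crh, the stress peptide, had the largest change of the 8 in both. In membrane pS6 Crh levels (lowest, median and highest mouse) were 15.7, 17.1 and 20.5 CPM in CFC SD mice and 8.74, 10.2 and 13.1 CPM in CFC Sleep mice. In the NoCFC arm they were 11.54, 14.5 and 24.3 CPM in SD mice and 5.97, 9.12 and 10.6 CPM in Sleep mice, so SD and Sleep mice did not overlap in either arm. The log2 fold change was 0.83 ± 0.10 (adjusted p = 8.4e-07, edgeR). In cytosolic pS6 the Crh means were 6.65 ± 1.35 CPM in SD mice (n = 14) and 3.21 ± 1.01 CPM in Sleep mice (n = 16), a log2 fold change of 1.04 ± 0.13 (adjusted p = 9.5e-07, edgeR) with 14 of 14 SD mice above the Sleep median of their arm. There the NoCFC groups did not overlap, at 4.81 to 8.47 CPM in SD mice and 2.003 to 3.85 CPM in Sleep mice, while the CFC groups did, at 3.57 to 8.32 CPM and 1.80 to 6.06 CPM.

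Sst in membrane pS6 ran through 900.6, 1053 and 1287 CPM in CFC SD mice and 688, 793 and 909 CPM in CFC Sleep mice. In the NoCFC arm Sst was at 917, 1005 and 1182 CPM in SD mice and 616, 675 and 877 CPM in Sleep mice. The NoCFC groups did not overlap and in the CFC arm the lowest SD mouse, at 900.6 CPM, lay below the highest Sleep mouse, at 909 CPM. The log2 fold change of Sst was 0.47 ± 0.06 in membrane pS6 (adjusted p = 2.3e-06, edgeR) and 0.54 ± 0.10 in cytosolic pS6 (adjusted p = 4.8e-04), with 14 of 14 SD mice above the Sleep median of their arm in each. Cytosolic pS6 levels averaged 233.5 ± 49.5 CPM in SD mice and 160.3 ± 26.7 CPM in Sleep mice.

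Npy moved with Sst. In membrane pS6 Npy was at 170.9, 202.2 and 252.0 CPM in CFC SD mice and 132.2, 165.4 and 189.2 CPM in CFC Sleep mice, and at 194.0, 208.4 and 248.7 CPM in NoCFC SD mice and 117.2, 132.5 and 200.4 CPM in NoCFC Sleep mice. A single NoCFC Sleep mouse, mouse 3 at 200.4 CPM, reached into the SD range of that arm. The log2 fold change of Npy was 0.47 ± 0.07 in membrane pS6 (adjusted p = 2.0e-05, edgeR) and 0.52 ± 0.08 in cytosolic pS6 (adjusted p = 6.0e-05), again with 14 of 14 SD mice above the Sleep median of their arm. Cytosolic pS6 means were 60.8 ± 11.3 CPM in SD mice and 42.2 ± 6.28 CPM in Sleep mice.

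Cort, which shares receptors with Sst, was at 11.4, 12.4 and 18.1 CPM in CFC SD mice and 9.08, 10.6 and 13.8 CPM in CFC Sleep mice in membrane pS6, and at 13.8, 14.8 and 19.6 CPM in NoCFC SD mice and 7.14, 10.1 and 15.1 CPM in NoCFC Sleep mice. The groups overlapped in both arms, with 14 of 14 SD mice above the Sleep median of their arm. The log2 fold change of Cort was 0.46 ± 0.11 in membrane pS6 (adjusted p = 0.016, edgeR). In cytosolic pS6 Cort averaged 4.93 ± 1.23 CPM in SD mice and 3.64 ± 0.707 CPM in Sleep mice, at 0.43 ± 0.12 (adjusted p = 0.017, edgeR; 13 of 14).

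Tac1, the substance P precursor, was at 37.0, 46.5 and 50.2 CPM in CFC SD mice and 27.9, 39.4 and 46.7 CPM in CFC Sleep mice in membrane pS6, and at 40.3, 47.7 and 49.6 CPM in NoCFC SD mice and 31.6, 35.1 and 42.1 CPM in NoCFC Sleep mice. These groups overlapped in both arms, at a log2 fold change of 0.30 ± 0.06 (adjusted p = 6.3e-03, edgeR; 13 of 14 above the Sleep median). The Tac1 change in cytosolic pS6 was 0.37 ± 0.08 (adjusted p = 4.2e-03, edgeR; 12 of 14), and there the NoCFC groups did not overlap, with 14.75 CPM the lowest SD value and 14.7 CPM the highest Sleep value.

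Vip, the marker of interneurons that inhibit interneurons, was at 28.2, 37.3 and 45.1 CPM in CFC SD mice and 21.6, 26.7 and 33.2 CPM in CFC Sleep mice in membrane pS6, and at 24.98, 29.3 and 36.0 CPM in NoCFC SD mice and 21.1, 24.04 and 29.5 CPM in NoCFC Sleep mice. The groups overlapped in both arms, and 14 of 14 SD mice were above the Sleep median of their arm. The log2 fold change of Vip was 0.35 ± 0.07 in membrane pS6 (adjusted p = 2.8e-03, edgeR). In cytosolic pS6 Vip averaged 6.62 ± 1.70 CPM in SD mice and 5.18 ± 0.877 CPM in Sleep mice, at 0.35 ± 0.11 (adjusted p = 0.049, edgeR; 12 of 14). That call was lost with other size factors (adjusted p = 0.052, edgeR), with no filter (0.076) and with the number run as a term (0.063).

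**Figure D3:**
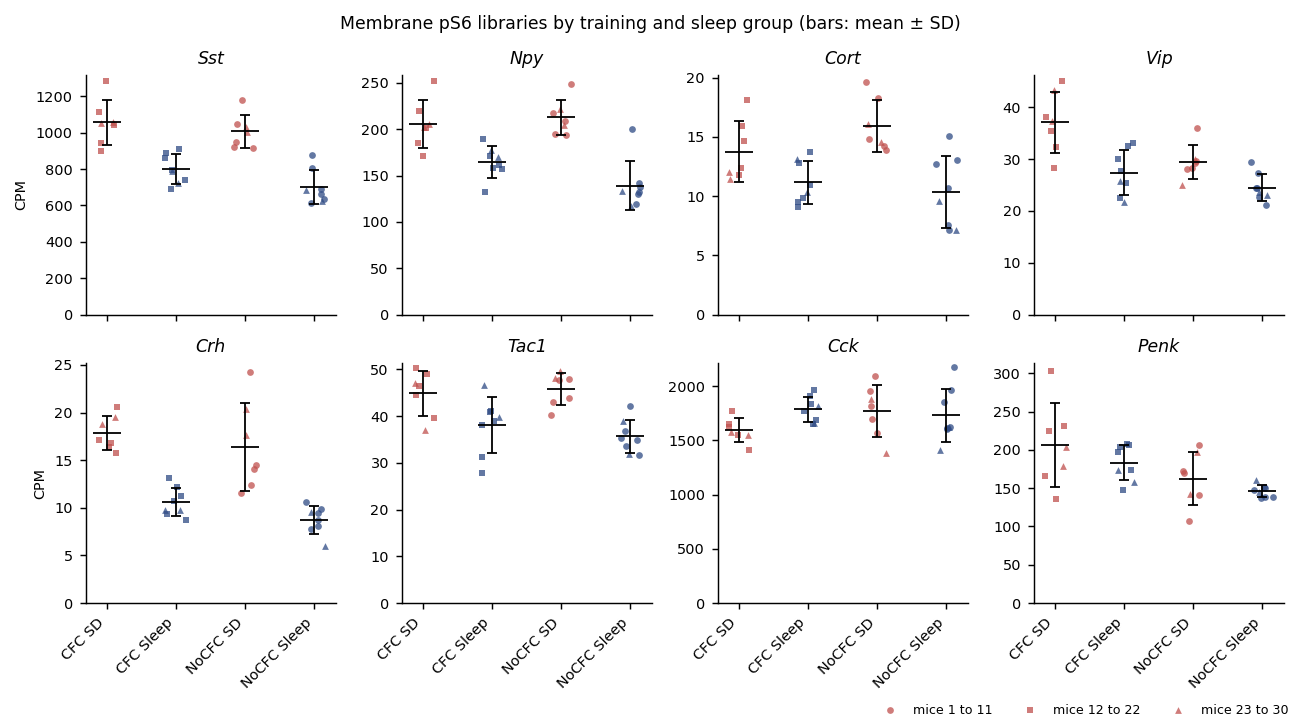
CPM of each gene in membrane pS6 libraries, 1 point a mouse, by training and sleep group, with symbols for the runs of mouse numbers and bars for mean ± SD (7 or 8 mice a group). Crh shows no overlap between SD and Sleep mice in either training arm, and Cck and Penk overlap throughout.

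Cck and Penk were the genes not called in the pS6 captures. Cck averaged 1682 ± 203.0 CPM in SD mice and 1761 ± 187.3 CPM in Sleep mice in membrane pS6, a log2 difference of -0.07 ± 0.06 with a 95% interval from -0.19 to 0.05, and in cytosolic pS6 the interval ran from -0.28 to 0.02. Penk in cytosolic pS6 averaged 66.1 ± 16.4 CPM in SD mice and 52.3 ± 10.4 CPM in Sleep mice, at 0.33 ± 0.11 (adjusted p = 0.058, edgeR; 11 of 14 SD mice above the Sleep median of their arm), and DESeq2 called it (adjusted p = 0.047). Without the far libraries of mice 19 and 22 Penk was called as well (adjusted p = 0.030), which made 7 genes of 8 in cytosolic pS6, and the count in membrane pS6 remained 6 without mouse 19. Penk in membrane pS6 was at 0.16 ± 0.09 (adjusted p = 0.44).

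The SD differences of the 6 called genes were above 0 within each run of mouse numbers in both pS6 captures, and in cytosolic pS6 each of them was largest in mice 23 to 30. By run, values are differences between the mean log2(CPM + 0.5) of SD and of Sleep mice, untested, and the added 0.5 makes them smaller for scarce genes. For Sst in cytosolic pS6 the difference was 0.34 for numbers 1 to 11, 0.47 for 12 to 22 and 0.85 for 23 to 30, and for Crh it was 1.01, 0.68 and 1.27. In membrane pS6 the Sst differences were 0.49, 0.37 and 0.56, and the Crh differences 0.68, 0.65 and 1.10. Vip in cytosolic pS6 varied most between runs, at 0.25, 0.05 and 0.71. Without mice 23 to 30, Sst, Npy and Crh remained called in cytosolic pS6, a count of 3, while Vip, Tac1 and Cort were not, at 0.18, 0.25 and 0.34. In membrane pS6 Sst, Npy, Crh and Tac1 remained, a count of 4, while Vip at 0.30 and Cort at 0.48 were not called (adjusted p = 0.11 each, edgeR).

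Outside the pS6 captures few calls were made on the 8 genes with sleep loss, which does not show that their levels were unchanged. In cytosolic Camk2a 0 of the 7 genes tested were called (6.28% of 14836 genes were), and Cort fell below the filter on low counts there. None of the 8 was called in membrane Camk2a (2.97% of 14968 genes) or in cytosolic Input (3.17% of 15948), and in these 3 types 0 genes had an unadjusted p under 0.05 and DESeq2 called 0. In membrane Input Crh alone was called higher, where 1.05% of 15642 genes were, at 6.04 ± 1.17 CPM in SD mice and 4.62 ± 0.844 CPM in Sleep mice (log2 fold change 0.37 ± 0.10, adjusted p = 0.046, edgeR; 14 of 14 SD mice above the Sleep median of their arm). The Crh groups overlapped, and the adjusted p rose to 0.061 with the number run as a term, 0.075 with no filter and 0.054 without the far libraries. Sst in cytosolic Input averaged 189.0 ± 30.5 CPM in SD mice and 209.5 ± 36.1 CPM in Sleep mice, a log2 difference of -0.14 ± 0.08 with an interval from -0.30 to 0.02.

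**Figure D4:**
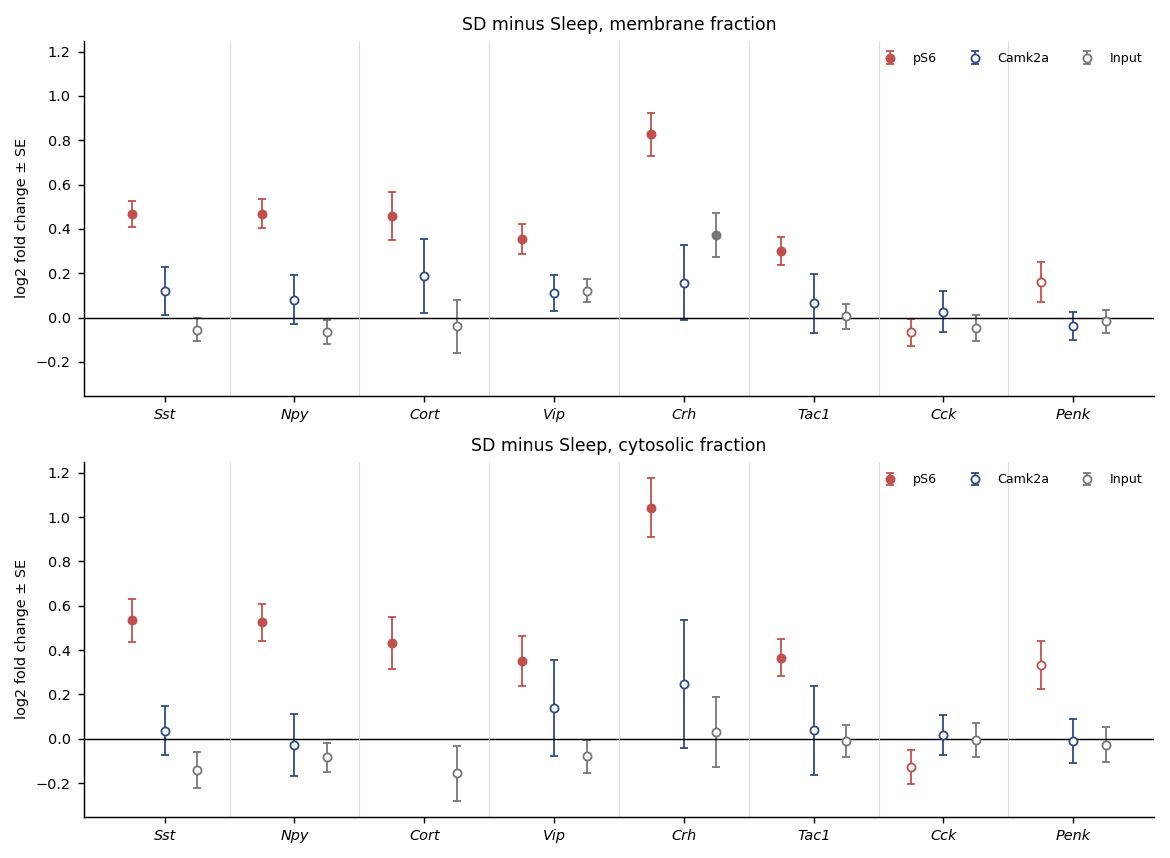
Log2 fold change ± SE of each gene between SD and Sleep mice (n = 14 and 16) in the 6 library types, with filled points for adjusted p under 0.05. Filled points sit at 6 genes in each pS6 capture, up to 1.04 for Crh in the cytosolic one, and at Crh in membrane Input, while Cort has no point in cytosolic Camk2a, where it was below the count filter.

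Whether the SD change in pS6 differed from that in Input was tested directly. In the cytosolic fraction the difference of the SD effects, pS6 minus Input, was called for Crh at 1.01 ± 0.21 (adjusted p = 4.0e-03, edgeR), Sst at 0.67 ± 0.13 (adjusted p = 2.3e-03) and Npy at 0.61 ± 0.11 (adjusted p = 8.2e-04), where 0.508% of 17112 genes were called higher. In the membrane fraction it was called for Sst at 0.52 ± 0.08 (adjusted p = 1.0e-04) and Npy at 0.54 ± 0.09 (adjusted p = 3.8e-04), where 0.0994% of 17101 genes were. Libraries with the same number come from the same mouse. With the mouse as a block 6 genes were called in the cytosolic fraction, where 246 of 17112 genes were called higher. The block added Cort at 0.57 ± 0.13, Tac1 at 0.36 ± 0.10 and Penk at 0.34 ± 0.09. In the membrane fraction 3 were called with it, adding Cort at 0.51 ± 0.11, where 32 of 17101 genes were called higher. Crh in the membrane fraction, where Input changed too, was at 0.46 ± 0.14 (adjusted p = 0.49; 0.18 with the block).

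Against the Camk2a capture, 0 of 8 differences of the SD effect passed in either fraction in the fit without the mouse as a block. Over all genes, 0.586% of 16730 passed in the cytosolic and 0.0589% of 16982 in the membrane fraction. Of the 8 genes, 4 were at an unadjusted p under 0.05 in each fraction. DESeq2 called Npy in the cytosolic fraction and none in the membrane fraction. With the mouse as a block, Sst, at 0.50 ± 0.10 (adjusted p = 2.6e-03, edgeR), and Npy, at 0.56 ± 0.14 (adjusted p = 0.019, edgeR), were called in the cytosolic fraction. With that block 392 of 16730 genes were called there. The estimates for Crh were the largest, 0.79 ± 0.31 and 0.68 ± 0.19 in the cytosolic and membrane fractions. Between membrane and cytosolic fractions of the same capture 0 of 8 SD effects differed, of a background of 0% in each capture, with 1 gene, Vip in Input, at an unadjusted p under 0.05 and 0 called by DESeq2.

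Vip and Penk were higher in CFC than in NoCFC mice in some membrane libraries, in a comparison that the order of the mice limits. Of the 8 genes, 2 each were called in membrane pS6 and membrane Input. In membrane Camk2a 1 was called, a share near that of all genes. None of these calls remained with the number run as a term. Vip was called higher in CFC than in NoCFC mice in membrane Camk2a, where 9.81% of 14968 genes were, in membrane pS6, where 8.1% of 16637 genes were, and in membrane Input, where 3.63% of 15642 genes were. Penk was called in the same direction in membrane pS6 and membrane Input. Vip in membrane pS6 averaged 31.9 ± 7.07 CPM in CFC mice and 26.8 ± 3.86 CPM in NoCFC mice (n = 15 each), a log2 fold change of 0.28 ± 0.07 (adjusted p = 4.6e-03, edgeR; 12 of 15 CFC mice above the NoCFC median of their sleep arm). Its change was 0.31 ± 0.08 in membrane Camk2a (adjusted p = 7.6e-03) and 0.16 ± 0.05 in membrane Input (adjusted p = 0.047). Penk in membrane pS6 averaged 194.1 ± 41.02 CPM in CFC mice and 153.9 ± 25.0 CPM in NoCFC mice, at 0.37 ± 0.09 (adjusted p = 4.1e-03, 13 of 15), and in membrane Input 96.8 ± 9.34 against 84.3 ± 6.86 CPM, at 0.22 ± 0.05 (adjusted p = 7.5e-03). All these groups overlapped.

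Training and number run cannot be told apart in mice 1 to 22. In mice 23 to 30, with 4 mice each, Vip in membrane pS6 averaged 32.0 ± 10.1 CPM in CFC and 25.4 ± 3.14 CPM in NoCFC mice, and in membrane Input 48.3 ± 7.68 CPM in CFC and 39.7 ± 3.31 CPM in NoCFC mice. As differences of mean log2(CPM + 0.5) within these mice, Vip gave 0.28 in membrane pS6, 0.27 in membrane Input and 0.19 in membrane Camk2a, and Penk 0.15 in membrane pS6 and 0.11 in membrane Input. These are not on the scale of the edgeR estimates over all mice, and they were not tested. With the run as a term no CFC call on the 8 genes remained: Vip was at 0.35 ± 0.14 in membrane pS6 (adjusted p = 0.37), 0.26 ± 0.16 in membrane Camk2a (0.72) and 0.32 ± 0.10 in membrane Input (0.42), and Penk at 0.20 ± 0.18 in membrane pS6 (0.86). Vip in membrane Input was not called with no filter on low counts (adjusted p = 0.080, edgeR) or without the far libraries, at 0.11 (adjusted p = 0.19). Sst in membrane pS6 was just short of a call with edgeR (adjusted p = 0.051), and DESeq2, other size factors and no filter each called it. In the 3 cytosolic types 0 genes were called with edgeR or DESeq2, of backgrounds of 0.133% in pS6, 0.148% in Camk2a and 0.219% in Input, and 1 had an unadjusted p under 0.05, Penk in cytosolic pS6 at 0.22 ± 0.11.

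Marker lists were read against the same training contrast. In membrane Camk2a 5 of 9 astrocyte markers, 5 of 8 microglia markers, 2 of 8 oligodendrocyte markers and 2 of 12 vascular, choroid plexus and blood markers were called higher in CFC mice and 0 lower, with medians of 0.38, 0.37, 0.26 and 0.39. Of the GABAergic genes there, 6 of 27 tested were higher and 2 lower (median 0.15), and of the 14 excitatory markers 1 was higher and 2 lower (median -0.08). Over all genes 9.81% were called higher and 7.17% lower. The summed astrocyte markers in membrane Camk2a ran from 1530 to 4113 CPM in CFC mice and 1715 to 2725 CPM in NoCFC mice, and the GABAergic genes from 831 to 1369 CPM in CFC mice and 871 to 1082 CPM in NoCFC mice. The summed microglia markers ran from 138 to 404 CPM in CFC mice and 134 to 239 CPM in NoCFC mice.

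In membrane pS6, where 8.1% of all genes were called higher and 8.75% lower, 1 of 9 astrocyte and 1 of 8 microglia markers were higher, shares near that of all genes. There 3 of 12 vascular markers were higher and 3 of 8 oligodendrocyte markers lower. The GABAergic genes had 4 of 28 higher and 3 lower (median -0.04), and the excitatory markers 1 of 14 higher and 3 lower (median -0.05). In membrane Input, where 3.63% of all genes were higher and 2.9% lower, 2 astrocyte and 3 microglia markers were higher and 2 oligodendrocyte markers lower, with 1 GABAergic gene higher and 1 lower, and 1 excitatory marker lower. Summed astrocyte markers were 3987 to 11719 CPM in CFC mice and 4190 to 7219 CPM in NoCFC mice in membrane pS6. In membrane Input they were 6512 to 7979 CPM in CFC mice and 6426 to 7501 CPM in NoCFC mice, and none of the markers was at 0 in either group. The part of these lists in the Vip and Penk results was not tested.

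**Figure D5:**
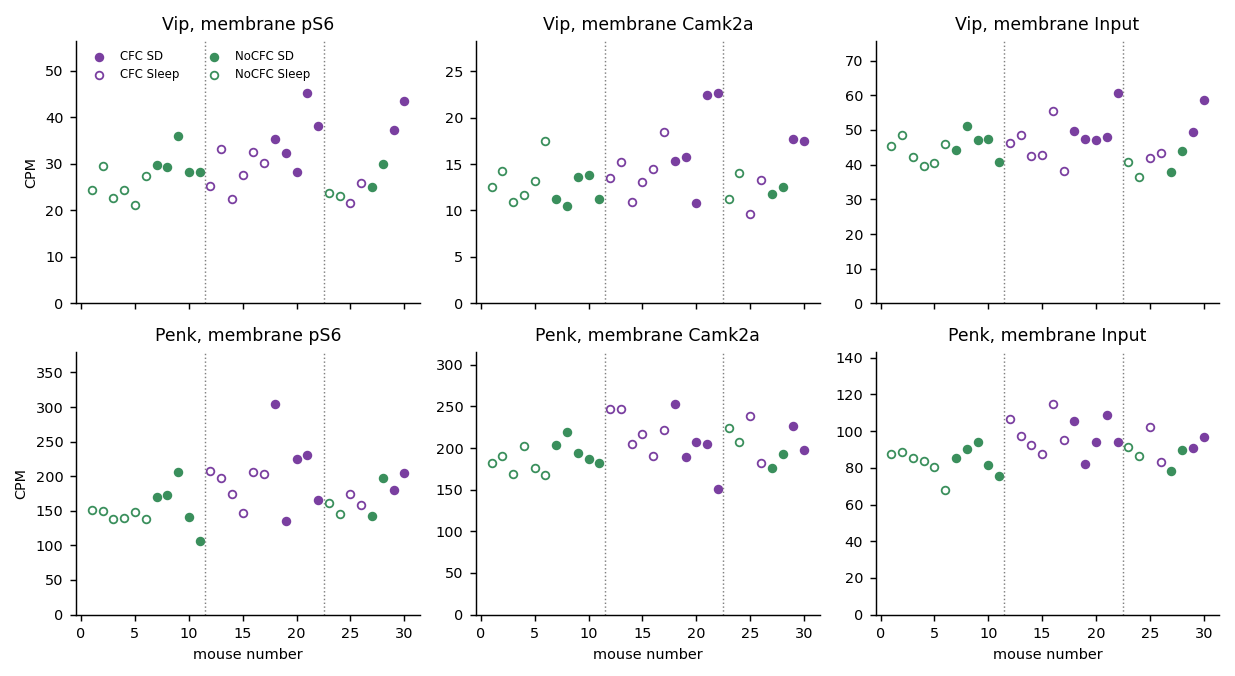
CPM of Vip and Penk in membrane libraries against mouse number, 1 point a mouse, coloured by training and filled for SD, with dotted lines between the runs 1 to 11, 12 to 22 and 23 to 30. In mice 23 to 30, the only run with both trainings, Vip in membrane pS6 averages 32.0 CPM in CFC and 25.4 CPM in NoCFC mice.

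No peptide gene had an SD effect that differed between trained and untrained mice: 0 of 8 passed in each of 5 types and 0 of 7 in cytosolic Camk2a, as did 0% of all genes in each type, with edgeR and with DESeq2. At an unadjusted p under 0.05 there was 1 member gene in membrane pS6, Npy, with an interaction of -0.28 ± 0.13, and 1 in membrane Camk2a, Vip, with 0.47 ± 0.16. Over all genes, 295 to 712 per type were under an unadjusted p of 0.05. These p-values do not show that the SD effects were equal: for Sst in membrane pS6 the interaction was -0.11 ± 0.12 and for Crh in cytosolic pS6 -0.38 ± 0.27.

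Other genes of the peptide system moved with SD in the pS6 captures. Over all genes, 758 of 16485 were called higher and 541 lower in cytosolic pS6. In membrane pS6, 184 of 16637 were called higher and 103 lower. Of 13 genes of peptide processing and dense-core vesicles, 4 were higher and 0 lower in cytosolic pS6, with a median of 0.07 against 0.00 over all genes, and 3 higher in membrane pS6. They were led by Pcsk1, the prohormone convertase that makes the first cuts in many precursors, at 0.88 ± 0.11 and 0.85 ± 0.08 in cytosolic and membrane pS6, followed by the granin Scg2 at 0.50 ± 0.07 and 0.36 ± 0.05 and the granin-like Vgf at 0.46 ± 0.08 and 0.42 ± 0.06. In the Camk2a and Input libraries 0 of the 13 were called. Of the 12 other peptide precursors, 5 were higher and 1 lower in cytosolic pS6 (median 0.34), among them Cartpt at 1.01 ± 0.09, Adcyap1, the precursor of PACAP, at 0.46 ± 0.11, and the dynorphin precursor Pdyn at 0.36 ± 0.07, with Grp, gastrin-releasing peptide, lower at -0.27 ± 0.06. In membrane pS6 3 were higher, Cartpt at 0.66 ± 0.11, Pnoc, the nociceptin precursor, at 0.40 ± 0.10 and Nts, neurotensin, at 0.36 ± 0.09.

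Among 19 receptors and binding proteins of the 8 peptides, 18 were tested in the pS6 captures. The background in cytosolic pS6 was 758 of 16485 genes called higher and 541 lower. That in membrane pS6 was 184 of 16637 higher and 103 lower. In cytosolic pS6 the somatostatin receptor Sstr2, at 0.48 ± 0.08, and Crhbp, the binding protein that sequesters Crh, at 0.38 ± 0.06, were higher, while the neuropeptide Y receptors Npy1r, at -0.24 ± 0.06, and Npy2r, at -0.20 ± 0.06, and Sstr3, at -0.18 ± 0.04, were lower. Sstr2 and Crhbp were also higher in membrane pS6, at 0.37 ± 0.07 and 0.41 ± 0.06. In membrane Input 1 receptor passed, Npy1r, lower at -0.22 ± 0.05, where 50 of 15642 genes were called lower.

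The SD change of the peptide genes in pS6 went with changes in other gene lists. Of all genes, 758 of 16485 were called higher and 541 lower in cytosolic pS6, and 184 of 16637 higher and 103 lower in membrane pS6. Of 28 GABAergic interneuron genes, 12 of 27 tested were higher and 0 lower in cytosolic pS6 (median 0.20), among them Dlx5 at 0.44 ± 0.09, Gad2 at 0.38 ± 0.06 and Lhx6 at 0.34 ± 0.05. In membrane pS6 3 of the 28 were higher and 1 lower (median 0.14), with Maf at 0.29 ± 0.07, the vesicular GABA transporter Slc32a1 at 0.28 ± 0.07 and Nos1 at -0.28 ± 0.06. Their summed level in cytosolic pS6 ran from 1540 to 1841 CPM in SD mice and 1307 to 1603 CPM in Sleep mice. All 12 activity-regulated genes on the list were higher in cytosolic pS6 (median 0.66) and 8 in membrane pS6, with summed levels of 1165 to 1945 CPM in SD mice and 708 to 1175 CPM in Sleep mice in the cytosolic one. Of 14 excitatory principal-cell markers, 1 was higher and 3 lower in cytosolic pS6 (median -0.10) and 0 higher and 4 lower in membrane pS6. The summed excitatory markers in cytosolic pS6 were 4337 to 6071 CPM in SD mice and 4983 to 5758 CPM in Sleep mice. Of 9 astrocyte markers 1, Gjb6, was higher in cytosolic pS6 (median 0.35) and 0 in membrane pS6 (median 0.27). Their sum ran from 613 to 2070 CPM in SD mice and 508 to 1644 CPM in Sleep mice in cytosolic pS6, and from 4508 to 11719 CPM and 3987 to 10515 CPM in membrane pS6. Of the oligodendrocyte and microglia markers, 8 each, 0 were called in either capture, and of the 12 vascular markers 1 was lower in membrane pS6. The part of these lists in the peptide results was not tested.

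Against Input, the GABAergic genes were lower in the Camk2a captures, as the 6 depleted peptides were: 22 of 28 were lower in cytosolic Camk2a than in Input (median -3.01) and 18 of 28 in membrane Camk2a (median -1.17), with 0 higher in either. In the pS6 captures against Input they had 2 higher and 2 lower in the cytosolic fraction (median -0.08) and 1 higher in the membrane fraction (median -0.03). Between fractions, unlike the 8 peptides, they were mixed in pS6, with 11 higher and 3 lower in the membrane fraction (median 0.39), and in Input, with 9 higher and 5 lower (median 0.11), while in Camk2a 17 of 27 tested were higher and 0 lower (median 1.42). The processing genes, which excitatory cells also use, had 0 of 13 called in either Camk2a capture against Input, with medians of 0.38 and 0.70. Among the other precursors, Tac2, at -3.69 ± 0.12, Pnoc, at -3.57 ± 0.10, and Pthlh, at -3.17 ± 0.15, were the lowest called in cytosolic Camk2a, and Nts, at 1.03 ± 0.08, was higher. All 12 of these precursors were higher in membrane than in cytosolic Camk2a and Input libraries, and 11 were in pS6.

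The genes whose pattern was most like each peptide gene were found over the 24 means of log2 CPM by library type and group, among 11086 genes. The means share mice and depth, so the values of Pearson's r are descriptions. Sst was most like Npy (r = 0.995) and then Timp4, and Npy most like Sst and then Slc32a1 (r = 0.992). Crh was most like Chst2 (r = 0.980) and Cartpt (r = 0.978). Vip was most like Ndrg2 and Ddah1 (r = 0.997 each). Tac1 was most like Kcna6 (r = 0.994) and Mxra7 (r = 0.992), and Cort most like Mxra7 (r = 0.991) and Dhrs3 (r = 0.988). Cck was most like Kcnq3 (r = 0.997) and the NMDA receptor subunit gene Grin2a (r = 0.994), and Penk most like Fst (r = 0.988) and Sidt1 (r = 0.984).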

How the data were processed

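Counts per gene were deposited by the authors as 1 table of raw read counts; STAR 2.6.1a, featureCounts and MultiQC 1.6a0 on GRCm38.p6 are named in the submitters' processing notes, and SMART-seq v4 libraries in the labels' protocols. Whether counting used the strand is not given in the sources used here. SMART-seq v4 does not mark strand. Depth was 11980405 to 26953695 counts a library.

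The counts were fitted in R 4.3.3 with edgeR 4.0.16 (filterByExpr, TMM, robust quasi-likelihood F-test, Benjamini-Hochberg over all genes; limma 3.58.1). Fits for SD, CFC and their interaction used the 30 libraries of a type, and others the 60 or 120 libraries compared. The latter had no term for the mouse, except where the replicate block is named. Levels are CPM of the table's totals, divided by the union of exons for CPM per kb. Scripts were tested on simulated data. Alternatives were DESeq2 1.42.0, other size factors, library totals, no count filter, a run term, omitted mice or libraries, and a replicate block. Libraries with the same number come from the same mouse: their deviations correlated with a median of 0.303 over 450 pairs, against -0.0137 over 13050 pairs of different numbers, and 396 of the 450 pairs were over 0.1. Duplicate libraries were not found within groups (chi-square per degree of freedom at least 3.01 over 588 pairs).

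The 8 genes, the gene lists and the tests were chosen with earlier results of these data known. Besides the 8 genes, Camk2a, Rpl22 and Rps6 were taken as checks, and genes of a list are named if they are among the 3 largest called changes in a direction; 2 like genes are named for each peptide gene. Leaving out the far libraries, library totals and principal transcript length were chosen after seeing the data. Rpl22 averaged 25.0 CPM in membrane and 30.6 CPM in cytosolic Camk2a libraries, against 29.0 and 43.1 CPM in Input, and Rps6 47.6 and 82.0 CPM in membrane and cytosolic pS6, against 36.6 and 71.6 CPM in Input. The precursor proteins were not analysed here.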

Additional observations from a re-analysis of the deposited data

Results flagged for a closer look

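A difference between library types flagged 5 results. The SD effect was larger in pS6 than in Input by 0.67 for Sst, 0.61 for Npy and 1.01 for Crh in the cytosolic fraction, and by 0.52 for Sst and 0.54 for Npy in the membrane fraction, all on the log2 scale and each past the threshold of the test of the difference itself (edgeR, adjusted over all genes). In cytosolic pS6 the rise of Sst was seen in all 3 runs of mouse numbers, and in cytosolic Input 0 of the 3 genes was called.

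A sample far from the others of its group flagged 6 of 192 groups of 7 or 8 mice; chance flags about 1 in 20 groups. Npy in membrane pS6 was at 200.4 CPM in mouse 3, the highest of the NoCFC Sleep mice. Crh in cytosolic pS6 was at 4.81 CPM in mouse 8, the lowest of the NoCFC SD mice. Penk was at 67.8 CPM in membrane Input of mouse 6, the lowest of the NoCFC Sleep mice, and at 42.2 CPM in cytosolic Input of mouse 17, the highest of the CFC Sleep mice. Cort was at 0.595 CPM in membrane Camk2a of mouse 4, the lowest of the NoCFC Sleep mice, and at 4.22 CPM in membrane Input of mouse 14, the lowest of the CFC Sleep mice.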

How the results depend on the processing

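The fraction and capture results on the 8 genes kept their direction under every alternative run except 2, both with library totals: Sst in cytosolic pS6 against Input at -0.040 and Penk in cytosolic pS6 against Camk2a at 0.01. Both are small differences. The replicate block moved 2 counts: the SD effect of cytosolic pS6 against Input went to 6 genes, and that against Camk2a to 2, which DESeq2 put at 1; Cort in the membrane fraction was the other call it changed. In membrane pS6 against Input, RLE size factors and DESeq2 gave 2 genes. The 6 SD calls in membrane pS6 were 6 under each scaling, filter and tool, and came to 4 without mice 23 to 30, when those in cytosolic pS6 came to 3. The SD call in membrane Input came to 0 with no filter, with the run term, without mice 23 to 30 and without the far libraries. The CFC counts came to 0 with the run term in membrane Camk2a, pS6 and Input. The count in membrane Camk2a was 2, Penk added, with no filter, DESeq2 or without the far libraries, and that in membrane Input was 1, Penk, with no filter or without the far libraries. Uncalled SD values that changed sign were Sst at -0.14, Vip at -0.0050, Cck at -0.048 and Tac1 at -0.16 in cytosolic Camk2a, Crh at -0.072 in cytosolic Input, and Tac1 at -0.010 and Cort at 0.016 in membrane Input, all without mice 23 to 30. Without the far libraries Penk changed to 0.00094 in cytosolic and 0.0087 in membrane Input, and Cort to 0.0061 in membrane Input. The cause was not tested. Over all genes, the SD calls without mice 23 to 30 came to 471 in cytosolic pS6, against 1299 with all mice, and to 76 against 287 in membrane pS6, 382 against 932 in cytosolic Camk2a, 125 against 444 in membrane Camk2a, 94 against 506 in cytosolic Input and 41 against 214 in membrane Input. DESeq2 gave 466 in membrane pS6, and no filter gave 322 in cytosolic Input. The CFC calls with the run term came to 1 against 2542 in membrane Camk2a, 12 against 2803 in membrane pS6 and 0 against 1022 in membrane Input. In the cytosolic types they came to 0, 2 and 0 against 22, 22 and 35 for Camk2a, pS6 and Input, where DESeq2 gave 57, 55 and 79. With the replicate block the differences of SD effects came to 388 against 115 genes for cytosolic pS6 minus Input, 40 against 19 in the membrane fraction, 392 against 98 for cytosolic pS6 minus Camk2a and 43 against 10 in the membrane fraction. With no filter, capture calls came to between 6812 and 9289 genes, against 1855 to 5137, and those between fractions to 10437 against 6025 in Camk2a and 13360 against 6305 in pS6. With few reads of Crh and Cort in cytosolic Camk2a, an SD change there was not detectable at this depth unless large. Libraries that share a mouse are separate captures of 1 tissue.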
